A study of Mus musculus with 66 samples.

Results

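The usage of cleavage and polyadenylation (pA) sites was compared between C2C12 mouse myoblasts transfected with an siRNA against Cdc73 (siCdc73) and with a non-specific control siRNA (siCtrl), in 2 batches of 3'READS, a method that sequences the 3' ends of poly(A)+ RNA. These are 4 of the 66 samples of the series, 2 in each group, and each siCdc73 library was set against the siCtrl library of its own batch. The cells were an established mouse line of skeletal muscle precursors, kept as myoblasts, and all 4 cultures received 50 nM siRNA for 48 h. The study's methods list a single target sequence for Cdc73, so that every result below is that of 1 siRNA. The members were the pA sites on the sense strand (those not typed as upstream antisense) that held at least 5% of the reads of their gene, as a mean over the 4 libraries, where the gene averaged 20 or more reads. Of 56273 sense sites of 15774 genes, 21258 sites of 9769 genes met both limits, and 19128 of these, in 7639 genes, could be tested because their gene had reads elsewhere as well. The remaining 2130 sites held every read of their gene. Nothing in the labels says that the samples of a group came from separate cultures, so that the p-values measure the spread between these samples only.

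Cdc73 (parafibromin) is a subunit of the Paf1 complex, which travels with RNA polymerase II and takes part in elongation, in histone modification and in the handling of the nascent transcript. A gene's transcript ends where it is cleaved and polyadenylated, usually downstream of an AATAAA or ATTAAA signal, and many genes have several such sites. A site in an intron or internal exon gives a transcript that lacks downstream coding sequence (CDS-APA), whereas a choice between sites of the 3'-most exon mainly changes the length of the 3'UTR (3'UTR-APA). The share of a site, the quantity used throughout, is the percentage of its gene's reads that end there, so that the shares of a gene sum to its whole and a rise at some sites must be met by a fall at others.

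The sequences around the sites that the results turn on are given first, 5' to 3' on the strand of the gene, from the NCBIM37 (mm9) genome, with the signal hexamer nearest the site in capitals where the 40 bases before the site held AATAAA or ATTAAA. Intronic sites are shown with 40 bases before and 20 bases after the site, and sites of the 3'-most exon with the 30 bases that end at it. They are shown because these sites had large changes, and because they differ in the presence of a signal.
Fn1, intron 26, chr1:71658685-71658744, minus strand: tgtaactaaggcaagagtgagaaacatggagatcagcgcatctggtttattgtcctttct
Zfhx4, intron 3, chr3:5246021-5246080, plus strand: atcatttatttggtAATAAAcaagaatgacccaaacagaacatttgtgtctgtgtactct
Zfp280c, intron 4, chrX:45931492-45931551, minus strand: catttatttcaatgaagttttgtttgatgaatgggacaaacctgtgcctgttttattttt
2310035C23Rik, intron 1, chr1:107561689-107561748, plus strand: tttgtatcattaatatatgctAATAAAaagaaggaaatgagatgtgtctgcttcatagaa
Col12a1, intron 2, chr9:79562692-79562751, minus strand: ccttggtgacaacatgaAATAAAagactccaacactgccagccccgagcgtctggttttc
Lrp1, intron 13, chr10:127026195-127026254, minus strand: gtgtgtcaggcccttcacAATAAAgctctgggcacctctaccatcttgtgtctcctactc
Lrp1, intron 34, chr10:127007814-127007873, minus strand: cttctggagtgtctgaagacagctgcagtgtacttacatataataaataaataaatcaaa
Pcbp2, intron 5, chr15:102305166-102305225, plus strand: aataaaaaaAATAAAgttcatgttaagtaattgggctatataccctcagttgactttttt
Ahnak, first site, chr19:9091726-9091755, plus strand: gaaATTAAAggagatctgaaaggttcagga
Ahnak, last site, chr19:9093657-9093686, plus strand: aagccaAATAAAgctctttattaaccctga
Of these, the intronic sites of Fn1 and Zfp280c and the downstream site of Lrp1 had neither hexamer in the 40 bases before the site. The Lrp1 site in intron 34 was followed by an A-rich stretch, with 7 A in the next 10 bases.

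The 4 libraries held between 5302728 and 14340927 reads with a non-genomic poly(A) tail (PASS reads). The targeted gene gave 43 reads with siCtrl and 3 with siCdc73 in batch 1, and 107 and 45 in batch 2. Its RNA-seq level, from 2 libraries of each condition, was 109 and 98.4 CPM (counts scaled to the size of the library) in siCtrl and 14.2 and 22.0 after siCdc73 (log2 fold change -2.56 ± 0.27 (SE), adjusted p = 1.99e-08). At 1 CPM or more in 3'READS, 10 of 12 myoblast markers were present, and their summed level ranged from 2586 to 3434 CPM in siCtrl and from 1870 to 2333 after siCdc73. Myod1 and Pax7, defining markers of the lineage, did not exceed 0.409 and 0.629 CPM in any of the 4 libraries. The myotube list, 18 of whose 25 genes reached that level, summed to 170 and 383 CPM in siCtrl and to 116 and 399 after siCdc73. Its members went both ways. Myog, a regulator of differentiation, was at 6.38 and 14.2 CPM in siCtrl and at 1.89 and 4.12 after siCdc73. Mylpf, of the same list, was at 36.9 and 167 CPM in siCtrl and at 42.0 and 202 after siCdc73. Osteoblast, adipocyte and macrophage markers had 2 of 9, 1 of 8 and 4 of 9 genes at this level, and the ranges of their sums overlapped between the groups (18.3 to 93.3 against 19.7 to 89.8, 1.22 to 2.86 against 2.24 to 2.27, and 6.13 to 11.8 against 5.59 to 9.83). Of 8 endothelial markers 3 reached it, their sum was 22.9 and 31.5 in siCtrl and 6.05 and 8.11 after siCdc73, most of it from Kdr, and Pecam1 had no read. In bulk libraries fewer cells of a type and less RNA per cell cannot be told apart, and the part of these marker differences in the site shares was not tested.

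After depletion of Cdc73, sites upstream of the 3'-most exon rose more often than they fell, and the last sites of genes fell more often than they rose. Among sites in introns and internal exons, together called upstream sites, 386 rose and 65 fell in their share of the gene (11.2% and 1.88% of 3457 tested), at an adjusted p under 0.05 in edgeR's quasi-likelihood test with the batch as a block and with the same direction in both batches. Over all 19128 sites, 677 rose and 610 fell (3.54% and 3.19%). The called upstream rises had a median of 19.0 percentage points and the falls a median of -24.5 points. The minimum share, averaged over both groups, admits sites that are rare in siCtrl only if they are high after siCdc73, and at sites of 5% or more in siCtrl there were 113 rises and 65 falls among 2293. The rises lay in 355 genes, 30 of which had 2 or more rising upstream sites, and 74 of the 386 sites had no read at all in siCtrl. Without the batch block, the test left 2 calls, both upstream: the intronic site of Fn1 described below (adjusted p = 0.0343) and an internal exon site of Slc30a4, a zinc transporter, which was singled out after its values were seen. The Slc30a4 site held 0% and 0.0991% of the gene in siCtrl and 49.6% and 37.0% after siCdc73 (adjusted p without the block = 0.0343). Without the block 1365 sites had an unadjusted p under 0.05.

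Within the 3'-most exon, the most upstream retained site (the first site, in genes with 2 or more retained sites there) rose in 171 genes and fell in 34 (3.52% and 0.7% of 4856), and the last site rose in 35 and fell in 263 (0.721% and 5.42%). The minimum share bears on first sites as well. At first sites of 5% or more in siCtrl there were 119 rises and 34 falls among 4358, and under 5% in siCtrl 52 rises and 0 falls among 498. Sites that were the only retained site of their 3'-most exon fell in 213 and rose in 62 of 2646 genes, and middle sites were split with 23 rises and 35 falls of 3313. Of the 355 genes with a rising upstream site and the 171 with a rising first site, 2 were in both groups. Because the shares of a gene sum to its whole, a rise of one site lowers the others. The number of genes in which both classes could be tested was not counted, and nothing is read from this overlap. Upstream rises numbered 134 without siCtrl replicate 2, 194 without siCtrl replicate 1, 228 without siCdc73 replicate 1 and 224 without siCdc73 replicate 2, and rises of first sites 23, 64, 73 and 83 in the same order.

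**Figure D1:**
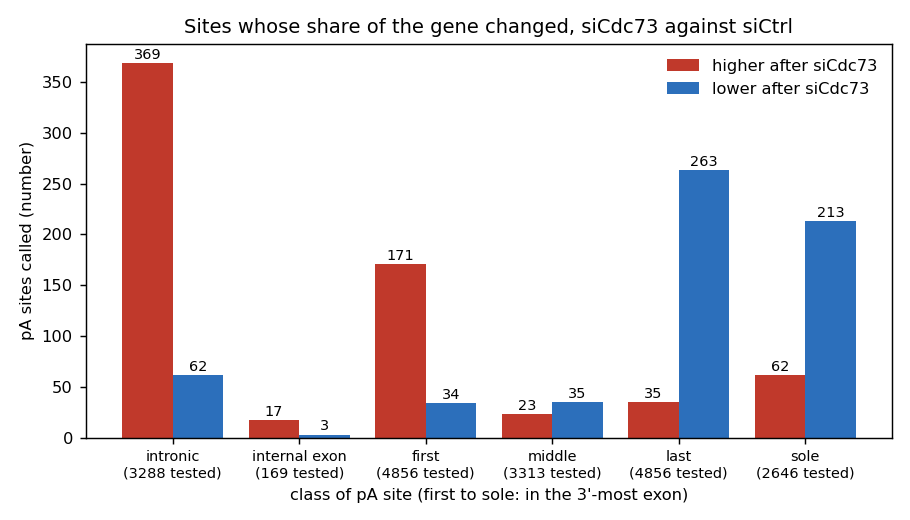
Number of pA sites whose share of the gene was called higher (red) or lower (blue) after siCdc73, by class of site on the horizontal axis, with the number tested under each class. Intronic sites (369 higher, 62 lower) and first sites of the 3'-most exon (171 and 34) were mostly higher, whereas last sites (35 and 263) and sole sites (62 and 213) were mostly lower.

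**Figure D2:**
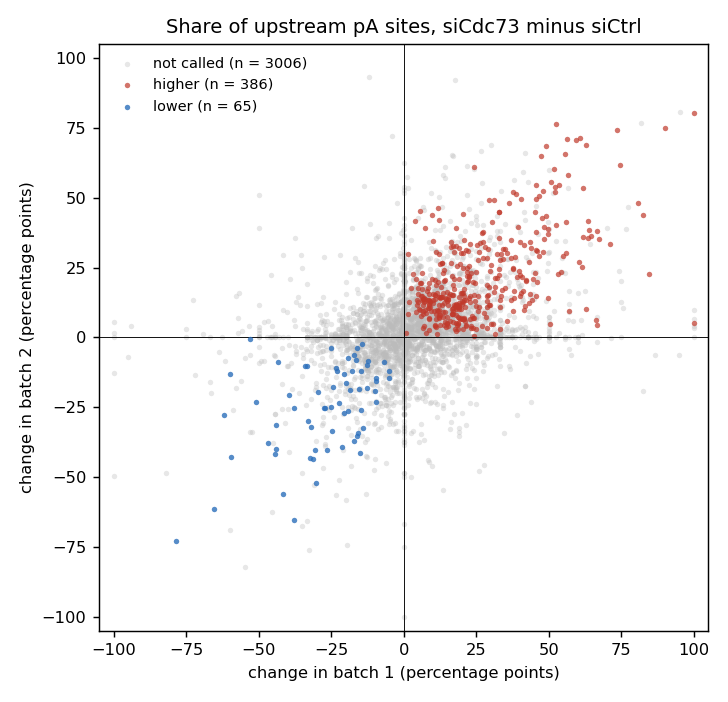
Change in the share of each of the 3457 upstream sites after siCdc73, in percentage points, in batch 1 (horizontal axis) and batch 2 (vertical axis), each point being 1 site. The 386 sites called higher (red) lie at the upper right and the 65 called lower (blue) in the lower left, as the call required. Over the upstream sites the changes of both batches had a correlation of 0.423.

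The limit of 5% had sites on both sides of it. Between 5% and 6% of the gene there were 1452 sites, of which 78 were called, and 385 of them were higher in both batches and 310 lower in both. Between 4% and 5%, just outside the limit, there were 1919 sites in genes with enough reads, of which 550 were higher and 384 lower in both batches. The 1164 upstream sites under 5% in siCtrl held 273 of the rises and no fall.

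Fn1 encodes fibronectin, a large glycoprotein of the extracellular matrix. Its site in intron 26 of 45, after 57.2% of the coding sequence, had 0 of 1529 and 0 of 2944 gene reads in siCtrl, counts that allow shares of up to 0.196% and 0.102%. After siCdc73 it held 596 of 1619 reads in batch 1, or 36.8% (95% Wilson interval 34.5 to 39.2%), and 1532 of 5405 in batch 2, or 28.3% (27.2 to 29.6%). The groups did not overlap, and the share rose by 32.6 ± 5.99 points (SD, n = 2 batches) with an adjusted p of 3.02e-34. Measured in CPM of PASS reads, the intronic end went from 0 in both batches to 113 and 107. The site at the 3' end of Fn1 fell from 95.6% and 98.6% of the gene to 26.6% and 43.1% (log2 odds ratio -6.19 ± 0.47, adjusted p = 1.96e-25), and from 198 and 297 to 81.3 and 163 CPM. A further site in intron 41 had 4.45% and 1.36% in siCtrl and 22.4% and 3.76% after siCdc73 (adjusted p = 0.000393), but its call was lost without siCtrl replicate 2 (adjusted p = 0.102) and without siCdc73 replicate 1 (0.387). Over the whole gene, 3'READS reads had a log2 fold change of 0.53 ± 0.28 that did not pass the test (adjusted p = 0.197), while RNA-seq reads over the coding region were lower by -0.59 ± 0.20 (adjusted p = 0.0198).

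Zfhx4 encodes a large transcription factor with zinc fingers and homeodomains. Its site in intron 3 of 10, after 28.0% of the coding sequence, already held 50.8% and 47.4% of the gene in siCtrl and took 96.5% and 97.1% after siCdc73 (log2 odds ratio 4.99 ± 0.51, adjusted p = 8.82e-16). In CPM, the intronic end rose from 8.95 and 9.40 to 250 and 209, whereas the end in the 3'-most exon stood at 8.68 and 10.4 in siCtrl and at 9.08 and 6.22 after siCdc73. Thus the share of the downstream site fell while its CPM values overlapped between the groups. In total Zfhx4 gained 3'READS reads (log2 fold change 3.77 ± 0.32, adjusted p = 7.3e-06), and its RNA-seq reads over the coding region did not pass the test (-0.10 ± 0.27, adjusted p = 0.794). Both the Fn1 and the Zfhx4 calls were kept without each of the 4 libraries in turn.

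The 10 largest upstream rises among genes that averaged 50 or more reads were all in introns. Zfp280c, a zinc finger protein gene, had 0 of 26 reads at its site in intron 4 of 19 in siCtrl batch 1 (which allows up to 11.5%) and 9.68% in batch 2, against 89.9% and 84.6% after siCdc73 (change 82.4 ± 10.6 points, adjusted p = 3.56e-08). In 2310035C23Rik the site in intron 1 of 28 went from 19.5% and 9.06% to 93.2% and 83.1% (log2 odds ratio 5.71 ± 0.52, adjusted p = 1.88e-19). It lay 1290 bases from the transcription start site (TSS), and the changes in both batches, 73.7 and 74.1 points, were the closest to each other of these 10. Col12a1, which encodes a collagen that lies along collagen fibrils, used its site in intron 2 of 65 for 7.47% and 8.81% of the gene in siCtrl and 81.9% and 70.5% after siCdc73 (log2 odds ratio 5.21 ± 0.51, adjusted p = 3.49e-17). That site is preceded by 0.794% of the coding sequence, and the last site of the gene fell from 77.9% and 76.2% to 11.9% and 22.0% (adjusted p = 2.38e-12). The Kdm3a site in intron 11 of 26, in a gene for a histone H3K9 demethylase, went from 0% (0 of 51 reads, up to 5.88%) and 10.1% to 80.8% and 58.1% (adjusted p = 1.05e-08). Lats2, a kinase of the Hippo pathway, ended in intron 2 of 7 in 35.4% and 10.9% of reads in siCtrl and in 84.3% and 79.3% after siCdc73 (log2 odds ratio 4.15 ± 0.67, adjusted p = 4.78e-07). These 5 calls were kept without each library in turn.

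The calls of Ubr1, Cox10, Tubgcp5 and Fam63b depended on at least 1 library. Ubr1, a ubiquitin ligase of the N-degron pathway, had 11 and 32 reads in siCtrl, of which 27.3% and 18.8% ended in intron 12 of 46, against 90.3% and 87.5% of 247 and 368 reads after siCdc73 (adjusted p = 7.89e-05, and 0.0876 without siCtrl replicate 2). Cox10, needed to make the heme of cytochrome c oxidase, went from 22.2% and 11.9% to 81.7% and 82.3% in intron 3 of 6 (adjusted p = 0.000115, and 0.0947 without siCtrl replicate 2). Tubgcp5, a component of the gamma-tubulin ring complex, had 19.2% and 0% (0 of 81 reads, up to 3.70%) in siCtrl and 75.6% and 71.1% after siCdc73 in intron 11 of 22 (adjusted p = 0.000164, and 0.364 without siCtrl replicate 2). In all 3 the siCdc73 values stood clear of the siCtrl values, but the sites were chosen for large rises in these same libraries, which favours such a separation. Fam63b, a deubiquitinase gene, went from 7.69% and 10.6% to 90.2% and 54.5% in intron 2 of 8 (adjusted p = 0.0209), and its call was lost without siCtrl replicate 1 (0.193), siCtrl replicate 2 (0.243) or siCdc73 replicate 1 (0.324).

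Lrp1, a large endocytic receptor of the LDL receptor family, changed at a pair of introns in opposite directions. Its site in intron 13 of 88 rose from 37.8% and 19.2% to 93.6% and 84.8% (log2 odds ratio 4.57 ± 0.49, adjusted p = 2.53e-14). Its site in intron 34 fell from 43.7% and 58.8% to 1.93% and 2.78% (log2 odds ratio -5.48 ± 0.51, adjusted p = 3.03e-18). In reads, the downstream intronic end went from 149 and 153 to 35 and 47, and the upstream end from 129 and 50 to 1695 and 1431. Total 3'READS reads of Lrp1 rose by 2.64 ± 0.31 on the log2 scale (adjusted p = 6.71e-05), and its RNA-seq reads did not pass the test (-0.41 ± 0.21, adjusted p = 0.113). Lrp1 was among 19 genes with both a rising and a falling upstream site.

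**Figure D3:**
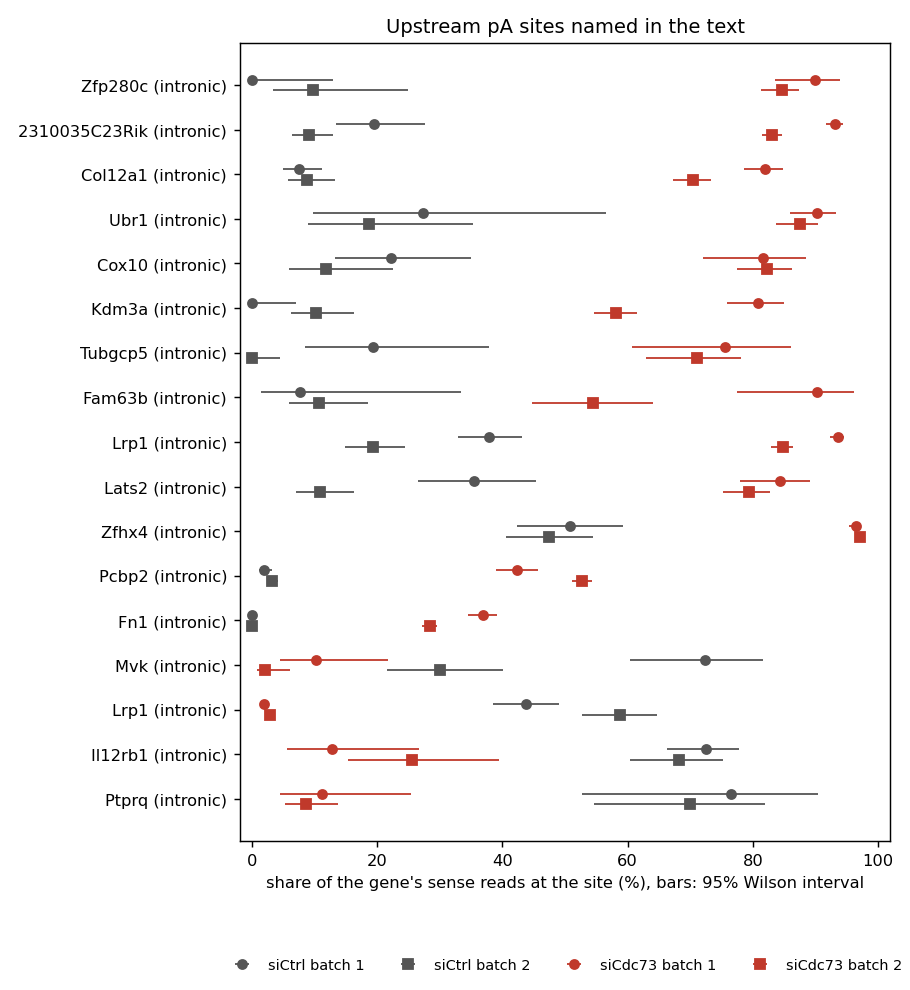
Share of the gene's reads at upstream pA sites named in the text, in %, with each siCtrl (grey) and siCdc73 (red) library as a circle for batch 1 or a square for batch 2 and bars for 95% Wilson intervals, which cover counting error only. At the rising sites both siCdc73 points lie to the right of both siCtrl points, as for Zfp280c (89.9% and 84.6% against 0% and 9.68%), and at the 4 falling sites they lie to the left. Most of these sites were chosen by the size of their change in these same libraries, which favours such a separation.

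The other 3 of the 4 largest upstream falls rested on fewer reads. Ptprq, a receptor-type phosphatase gene, went from 76.5% and 70.0% of 17 and 40 reads to 11.1% and 8.62% of 36 and 174 reads in intron 32 of 44 (adjusted p = 0.0200). Its call was lost without each library in turn, with adjusted p from 0.0595 without siCtrl replicate 1 through 0.127 without siCdc73 replicate 2 and 0.263 without siCdc73 replicate 1 to 0.527 without siCtrl replicate 2. Il12rb1, a subunit of the interleukin 12 receptor, fell from 72.5% and 68.2% to 12.8% and 25.5% in intron 9 of 15 (adjusted p = 0.0114), and was lost in the same 4 fits (0.497 and 0.0674 without siCtrl replicates 1 and 2, 0.179 and 0.0839 without siCdc73 replicates 1 and 2). Mvk, mevalonate kinase of the cholesterol pathway, fell from 72.3% and 30% to 10.2% and 2.11% in intron 7 of 10 (adjusted p = 0.000690), with 0.0647 and 0.0507 without siCtrl replicates 1 and 2 and 0.0548 without siCdc73 replicate 1. The widest 95% interval of any of the 14 upstream sites named for its size was 23.4 points to either side.

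Upstream sites that rose lay nearer the TSS than those tested. Of the tested sites in the 20% nearest the TSS of the distance from the TSS to the start of the last exon, 16.9% rose, and the share declined through 14.9%, 9.85% and 9.43% to 6.45% in the last 20%. Falls showed the opposite order, with 0.686% of sites in the bin nearest the TSS and 3.49% in the last. The median number of reads per gene was similar in these bins, between 58.5 and 67. In intron 1, 17.2% of 488 sites rose and 0.820% fell, in intron 2 14.8% of 433 and 1.39%, and in intron 6 or later 9.49% of 1412 and 2.83%. The median rising site was preceded by 30.2% of the coding sequence, against 62.5% for the falling and 41.0% for all tested upstream sites, and lay 14604, 34320 and 21438 bases from the TSS, respectively. Median reads per gene were 216 for rising, 207 for falling and 63.5 for all tested upstream sites, and the part of depth in these shares was not tested. Of the 386 rises, 273 were at sites under 5% in siCtrl, which the minimum share admits only if high after siCdc73. Positions were not separated by the share in siCtrl, and the part of this limit in their order was not tested.

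**Figure D4:**
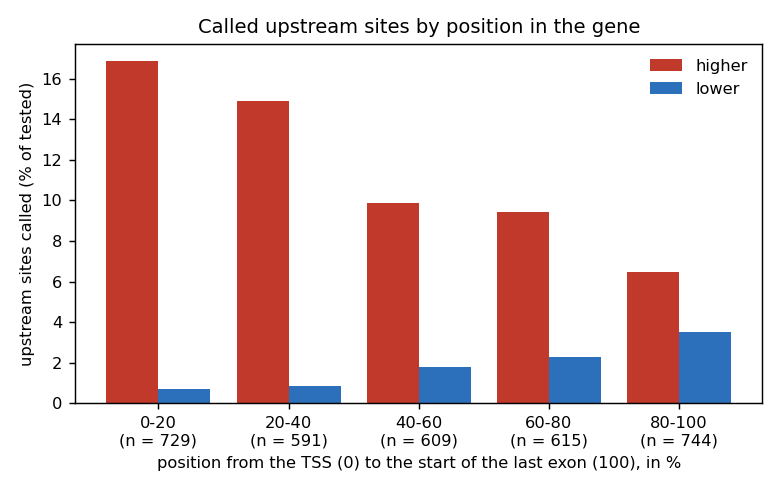
Percentage of tested upstream sites called higher (red) or lower (blue) after siCdc73, by position between the TSS (0) and the start of the last exon (100), with the number tested under each bin. Rises declined from 16.9% in the bin nearest the TSS to 6.45% in the last bin, while falls went from 0.686% to 3.49%.

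The signal hexamers of the rising sites resembled those of all tested upstream sites. AATAAA lay within 40 bases before 55.2% of the rising, 66.2% of the falling and 53.1% of all tested upstream sites, ATTAAA without AATAAA before 18.4%, 12.3% and 16.1%, and neither before 26.4%, 21.5% and 30.8%. Both hexamers were searched on the strand of the gene only. A stretch with 6 or more A in the 10 bases after the site followed 1.81% of the rising, 13.8% of the falling and 6.13% of all tested upstream sites. These are descriptions of the lists and were not tested.

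The choice of sites did not use RNA-seq reads, and in these the genes with a rising upstream site were called about as often as all genes with a tested upstream site. Of the 355 genes with a rising upstream site, 170 were tested in RNA-seq over the coding region, where 25 rose and 43 fell (14.7% and 25.3%), beside 14.3% and 25.9% of 1040 genes with any tested upstream site and 19.4% and 20.5% of all 6521 genes tested. Their median log2 fold change was -0.10, and that of the genes with a tested upstream site -0.14. In 3'READS, 89 of the 355 genes rose in total reads and 33 fell (25.1% and 9.30%), beside 13.3% and 11.2% of genes with a tested upstream site and 10.8% and 11.8% of all 12563 genes tested, but this count shares its reads with the choice of sites. Scaled by library size alone rather than by TMM, 966 genes rose and 1763 fell in RNA-seq, in place of 1266 and 1335, and the median over all genes moved to -0.19 in RNA-seq and -0.12 in 3'READS. The CPM of the 3'-most exon were lower in both batches in 61.8% of genes with a rising upstream site and in 48.3% of those with any tested upstream site, with medians of -0.53 and -0.43 against -0.34 and -0.31 on the log2 scale in batches 1 and 2. These reads also entered the choice of sites, which favours genes with few of them after siCdc73, so that nothing is read from this difference.

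The upstream ends were also summed in those of the 2185 genes with a tested upstream site that had at least 3 reads in each of the 4 libraries. In 112 of these genes, upstream ends made up more than 50% of reads in both siCdc73 libraries and in neither siCtrl library. Of the 112, 53 had a called rise. Amd1 and Amd2, which had the same values in every library, count as 2 of the 112 and of the 53. The reverse held for 18 genes, of which 7 had a called fall. Errfi1, an inhibitor of the EGF receptor, was among the 112 and was chosen here after its values were seen: its upstream ends held 29.0% and 40.8% of reads in siCtrl and 94.1% and 93.9% after siCdc73. Hhip, which binds and restrains Hedgehog ligands and was chosen in the same way, went from 11.4% and 15.8% to 81.4% and 80.1%. Some of the 112 genes had few reads, such as Rbm26 with a mean of 20.5 over the 4 libraries. Genes entered these sums through a tested upstream site, and the minimum share admits sites rare in siCtrl only if they are high after siCdc73. The part of this limit in the counts was not tested, and neither were these sums over sites.

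In the 3'-most exon, the largest rise of a first site was in Ahnak, which encodes a giant scaffold protein of the membrane cytoskeleton. This first site lies in exon 5, the last exon of the annotation used, after 93.8% of the coding sequence, so that it is an end within coding sequence although the authors' class is the 3'-most exon. It held 3.35% and 1.48% of the gene in siCtrl and 73.9% and 57.4% after siCdc73 (log2 odds ratio 6.41 ± 0.57, adjusted p = 6.98e-20). The last site fell from 96.7% and 98.5% to 24.6% and 39.8% (adjusted p = 1.56e-20). In CPM, the first site rose from 1.22 and 1.02 to 80.2 and 64.1 while the last site went from 35.3 and 68.1 to 26.7 and 44.5. On this scale the first site was higher and the last site lower after siCdc73 within each batch, although the ranges of the groups overlapped at the last site, and both calls were kept without each library in turn.

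Further rises of first sites were of 38.4 to 63.1 points. Reep3, a membrane protein of the endoplasmic reticulum, rose from 45.2% and 17.8% to 82.8% and 79.8% (log2 odds ratio 3.40 ± 0.49, adjusted p = 1.72e-08). Dusp11, a phosphatase that acts on RNA 5' ends, rose from 45.5% and 42.7% to 84.1% and 85.3% (log2 odds ratio 2.82 ± 0.44, adjusted p = 1.29e-07). Both were kept without each library in turn. Smurf1, a ubiquitin ligase that acts on BMP signalling, rose from 15.6% and 7.46% to 63.5% and 52.1% (adjusted p = 2.26e-05, and 0.0687 without siCtrl replicate 2), and Pank3, a kinase of coenzyme A synthesis, from 37.5% and 22.4% to 75.6% and 64.0% (9.59e-05, and 0.103 without it). Cdc42se2, an effector of the GTPase Cdc42, had 0 of 9 reads (which allows up to 33.3%) and 17.1% in siCtrl and 72.1% and 71.2% after siCdc73 at an end that the annotation places before the coding sequence (adjusted p = 0.00763). Its call was lost without siCtrl replicate 1 (0.0898), siCtrl replicate 2 (0.182) and siCdc73 replicate 1 (0.147). Efna5, an ephrin ligand, went from 60.7% and 27.5% to 97.4% and 70.8% (adjusted p = 0.0333), and Cnnm2, a magnesium transport protein, from 40% and 19.4% to 79.7% and 56.5% (0.0328). Both were lost without each library in turn, with adjusted p from 0.183 without siCtrl replicate 2 and 0.200 without siCdc73 replicate 2 to 0.227 without siCdc73 replicate 1 and 0.338 without siCtrl replicate 1 for Efna5, and from 0.0833 without siCdc73 replicate 2 and 0.148 without siCtrl replicate 1 to 0.373 without siCdc73 replicate 1 and 0.506 without siCtrl replicate 2 for Cnnm2. The median distance from the first to the last site was 1769 bases in the 171 genes whose first site rose and 1049.5 bases in all 4856.

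Some genes with a falling share of the first site had a rising site upstream of it. In Nedd4, a HECT ubiquitin ligase, the first site fell from 78.4% and 48.6% to 21.9% and 18.2% (adjusted p = 4.81e-05, and 0.0682 without siCtrl replicate 1), while its site in intron 6 of 28 rose from 9.25% and 16.0% to 57.6% and 55.5% (adjusted p = 5.23e-06). In Ubr1, described above, the share fell from 54.5% and 40.6% to 3.24% and 3.53% (adjusted p = 0.000261), although the site itself had 6 and 13 reads in siCtrl and 8 and 13 after siCdc73. Msl2, a subunit of a histone acetyltransferase complex, fell from 60.6% and 79.3% to 22.9% and 17.2% (adjusted p = 0.00465), with 0.430 without siCtrl replicate 2 and 0.230 without siCdc73 replicate 2. The histone gene Hist1h2bk had 48 and 151 reads in siCtrl and only 3 and 14 after siCdc73, too few to compare its sites closely: the first site held 100% and 97.4% in siCtrl and 0 of 3 reads, which sets no limit, and 50.0% after siCdc73 (adjusted p = 0.00192, with 0.131 without siCtrl replicate 1 and 0.0571 without siCdc73 replicate 2). Its last site, the complement of the first, rose by the same reads.

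Other rises were at last sites, where falls were more common, or at middle sites, which were split. Of these, the last sites of Snx33 and Prr5 lay 9030 and 2736 bases past the nearest annotated end of the gene. Whether reads there come from transcripts of these genes was not tested. Igfbp5, a binding protein of insulin-like growth factors that muscle cells secrete, rose at a middle site from 20.7% and 3.39% to 65.4% and 47.5% (log2 odds ratio 3.74 ± 0.52, adjusted p = 3.25e-09), and was kept without each library. Snx33, a sorting nexin, rose at its last site from 12.4% and 19.0% to 63.8% and 63.8% (adjusted p = 0.00358), and was lost without each library (0.164 and 0.0738 without siCtrl replicates 1 and 2, 0.0503 and 0.0647 without siCdc73 replicates 1 and 2). Prr5, a partner of mTOR complex 2, rose from 17.2% and 36% to 72.8% and 62.6% at its last site (adjusted p = 0.0104, with 0.580 without siCtrl replicate 1 and 0.200 without siCdc73 replicate 1).

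**Figure D5:**
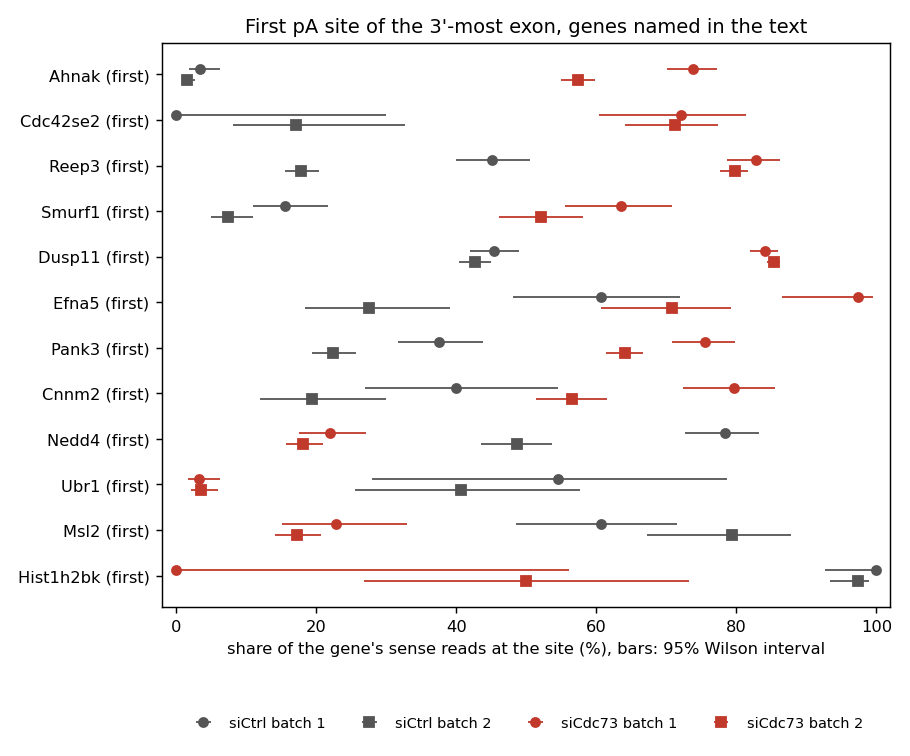
Share of the gene's reads at the first pA site of the 3'-most exon, in %, for the 8 largest rises and 4 largest falls, with siCtrl (grey) and siCdc73 (red) libraries as circles for batch 1 and squares for batch 2, and 95% Wilson intervals as bars. Ahnak is the widest apart of the rises with many reads (73.9% and 57.4% against 3.35% and 1.48%), and the wide bars of Hist1h2bk come from its 3 and 14 reads after siCdc73.

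The targeted gene itself had a site that was called, in exon 9 of 17, after 52.5% of the coding sequence. It had 0 of 43 and 0 of 107 reads in siCtrl (which allows up to 6.98% and 2.80%) and 2 of 3 and 2 of 45 reads after siCdc73, with no read in the siPaf1 and siSki8 libraries. The site lies within the stretch that the study's methods list as the target of the siRNA. Its adjusted p was 0.0306, and the call was lost without each library in turn (0.545 and 0.225 without siCtrl replicates 1 and 2, 0.515 and 0.134 without siCdc73 replicates 1 and 2). The other 5 tested sites of Cdc73, all in its 3'-most exon, did not pass the test.

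The lists by function were chosen with earlier results of these data known, and most stood above the share of all genes. Rising upstream sites lay in genes with a median of 216 reads, against 63.5 for all tested upstream sites. The part of depth and of the choice of lists in these shares was not tested. Fn1, named whatever its result, and Col12a1, an RT-qPCR gene of the study, are on the matrix list. Of these lists, the extracellular matrix had the largest share of genes with a called site. Of its 34 tested genes 15 had a call (44.1%), beside 870 of 7639 genes overall (11.4%), and 9 of its 26 upstream sites rose and none fell, beside 11.2% and 1.88% of all upstream sites. The median change over its upstream sites was 10.2 points, against 5.29 for all. Besides Fn1 and Col12a1, an upstream exonic site of Col5a2, a fibrillar collagen chain, rose from 2.90% and 0% (0 of 374 reads, up to 0.802%) to 45.1% and 20.7% (adjusted p = 6.03e-09). Vcan, which encodes the proteoglycan versican, rose in intron 3 of 14 from 0.774% and 0.509% to 9.05% and 11% (adjusted p = 2.73e-08). Both calls were kept without each library. In RNA-seq, 14 of 24 matrix genes fell and 4 rose, with a median log2 fold change of -0.83, beside 20.5% and 19.4% of all genes and a median of -0.02, while Vcan was among those that rose (1.14 ± 0.24, adjusted p = 0.000349).

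Cell adhesion genes had calls in 9 of 28 (32.1%), with 4 rises and 3 falls among 18 upstream sites. Fat1, a giant cadherin, ended in intron 1 of 25 in 8.06% and 11.8% of reads in siCtrl and in 55.9% and 54.7% after siCdc73 (log2 odds ratio 3.50 ± 0.51, adjusted p = 2.33e-08). Cd44, the hyaluronan receptor, rose from 4.56% and 1.79% to 33.9% and 20.0% in intron 5 of 18 (adjusted p = 1.99e-07). Itgav, the integrin alpha V subunit, fell at its only retained 3' site from 97.7% and 99.9% to 84.8% and 86.2% (adjusted p = 3.5e-11), and its RNA-seq reads fell as well (-1.53 ± 0.23, adjusted p = 4.31e-06). All 3 were kept without each library. Ncam1, an adhesion molecule of myoblasts, moved the other way at its main intronic site, which fell from 92.4% and 91.0% to 73.8% and 72.2% (adjusted p = 0.000648, and 0.112 and 0.0698 without siCtrl replicates 1 and 2), in intron 14 of 17.

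Cytoskeleton and membrane scaffold genes had calls in 9 of 36 (25%), with 4 rises and no fall among 20 upstream sites. Rdx, which encodes radixin, a linker of actin to the membrane, rose in intron 1 of 13 from 7.65% and 6.31% to 28.6% and 23.6% (adjusted p = 9.08e-05, and 0.112 without siCtrl replicate 2). Its RNA-seq reads fell by 1.69 on the log2 scale (adjusted p = 3.33e-06). Tpm3, a tropomyosin, fell by 0.597 points only, from 99.9% and 99.6% to 99.5% and 98.8% (adjusted p = 0.00328), and was lost without each library (0.231 and 0.125 without siCtrl replicates 1 and 2, 0.0505 and 0.0947 without siCdc73 replicates 1 and 2).

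Among chromatin regulators 17 of 71 genes had a call (23.9%), with 12 rises and 3 falls among 59 upstream sites. Mll5, a member of the trithorax family, had 0 of 146 and 0 of 218 reads at its site in intron 1 of 25 in siCtrl (up to 2.05% and 1.38%) and 32.8% and 22.4% after siCdc73 (adjusted p = 4.29e-09). This site lies before the coding sequence. Chd4, the remodelling ATPase of the NuRD complex, rose in intron 38 of 38, after 96.9% of the coding sequence, from 1.36% and 0.404% to 21.8% and 16.2% (adjusted p = 6.1e-09). Both were kept without each library. Zinc finger and homeodomain transcription factors had calls in 12 of 52 (23.1%), with 4 rises and 2 falls among 36 upstream sites. Klf6, a zinc finger factor, fell at its last site from 89.1% and 85.6% to 45.2% and 59.2% (adjusted p = 0.000279, and 0.0698 without siCtrl replicate 1). Meis2, a partner of Hox proteins, went from 14.1% and 16.5% at its last site to 0% (0 of 124 reads, up to 2.42%) and 2.05% (adjusted p = 0.000595). Zfr, a zinc finger RNA-binding protein, fell at its sole 3' site from 14.5% and 18.3% to 3.21% and 5.22% (adjusted p = 8.41e-05, with 0.183 without siCtrl replicate 2 and 0.110 without siCdc73 replicate 1).

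Genes of RNA synthesis and processing were called at varying rates. In the Paf1 complex, 2 of 6 genes had a call. One is Cdc73, whose called site, described above, lies within the listed siRNA target and had 2 reads in each siCdc73 library. The other is Rtf1, whose site in intron 3 of 17 rose from 1.05% and 0.769% to 11.5% and 10.3% (adjusted p = 6.68e-05). The Rtf1 call was lost without siCtrl replicate 2. Of 17 cleavage and polyadenylation factors 2 had a call (11.8%), and both were rises among 10 upstream sites. Rbbp6, a factor that binds the cleavage machinery, ended in its exon 1, before the coding sequence, in 6.98% and 6.01% of reads in siCtrl and in 78.2% and 39.3% after siCdc73 (adjusted p = 4.67e-08), and was kept without each library. Pcf11, which couples polymerase II to termination, rose in intron 1 of 15 from 9.09% and 3.08% to 37.7% and 21.8% (adjusted p = 0.00616), and was lost without each library (0.0932 and 0.287 without siCtrl replicates 1 and 2, 0.0590 and 0.0946 without siCdc73 replicates 1 and 2). Elongation factors had calls in 3 of 18 genes (16.7%). Ccnt1, the cyclin of P-TEFb, rose in intron 6 of 9 from 2.80% and 0.833% to 26.7% and 20.8% (adjusted p = 2.83e-05, and 0.0983 without siCtrl replicate 2). Hexim1, an inhibitor of P-TEFb, had a middle site at 0.625% and 23.1% against 0.0541% and 1.17% (adjusted p = 8.51e-05), so that the siCtrl batches themselves differed widely, and the call was lost without siCtrl replicate 2 (0.616) and siCdc73 replicate 2 (0.175).

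Splicing factors had calls in 11 of 51 genes (21.6%), with 5 rises and no fall among 17 upstream sites. Mbnl2, a muscleblind splicing regulator, rose in intron 2 of 7 from 0% (0 of 45 reads, up to 6.67%) and 0.286% to 46.0% and 31.2% (adjusted p = 2.14e-07), and its RNA-seq reads fell (-1.22 ± 0.27, adjusted p = 0.000518). Hnrnpa2b1 rose at its last site from 89.7% and 91.2% to 99.3% and 97.1% (adjusted p = 2.64e-07, and 0.0875 without siCdc73 replicate 1). Hnrnpd fell there from 11.5% and 21.1% to 3.55% and 1.37% (2.57e-05, with 0.208 without siCtrl replicate 2 and 0.226 without siCdc73 replicate 2). Rbm5 fell at its sole 3' site from 92.4% and 96.2% to 70.8% and 73.0% (adjusted p = 0.00395, with 0.533 without siCtrl replicate 2 and 0.123 without siCdc73 replicate 1). Of 17 RNA silencing factors only Eif2c2, an Argonaute protein, had a call, a fall of its first site from 96.2% and 92.8% to 92.3% and 78.9% (adjusted p = 0.0154) that was lost without each library (0.115 and 0.583 without siCtrl replicates 1 and 2, 0.0649 and 0.250 without siCdc73 replicates 1 and 2).

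Ubiquitin ligases and conjugating enzymes had calls in 9 of 67 genes (13.4%), with 6 rises and no fall among 24 upstream sites. Beside Nedd4 and Ubr1, Fbxw7, the substrate receptor of an SCF ligase, rose in intron 1 of 13 from 0% (0 of 126 reads, up to 2.38%) and 1.67% to 37.7% and 26.1% (adjusted p = 2.18e-09). Kinases and phosphatases had calls in 18 of 92 (19.6%), with 9 rises and 3 falls among 42 upstream sites. Ptk2, the focal adhesion kinase, rose in intron 29 of 34 from 1.94% and 12.4% to 22.2% and 56.5% (log2 odds ratio 3.48 ± 0.45, adjusted p = 2.61e-10), with the batches apart in level but not in direction. Abl2, a tyrosine kinase of the actin cytoskeleton, rose at its first 3' site from 1.04% and 1.42% to 17.4% and 17.2% (adjusted p = 9.73e-08). Ppp2r1b, a scaffold subunit of protein phosphatase 2A, rose at its 3' site from 39% and 17.2% to 86.7% and 87.5% (adjusted p = 2.42e-07), and its upstream ends fell. The calls of Fbxw7, Ptk2, Abl2 and Ppp2r1b were kept without each library.

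Genes of Wnt, TGF-beta and Notch signalling had calls in 6 of 42 (14.3%), with 3 rises and no fall among 20 upstream sites. Bmp1, a protease that processes procollagen, fell at its 3' site from 92.5% and 79.9% to 79.4% and 53.1% (adjusted p = 0.00176, with 0.165 and 0.116 without siCtrl replicates 1 and 2 and 0.0971 without siCdc73 replicate 2). Wwtr1, the coactivator TAZ, fell at its last site from 93.0% and 97.5% to 78.4% and 93.4% (adjusted p = 0.0120), with overlapping groups, and was lost without each library (0.262 and 0.250 without siCtrl replicates 1 and 2, 0.142 and 0.0856 without siCdc73 replicates 1 and 2). Vesicle traffic genes had calls in 13 of 72 (18.1%), with 6 rises and no fall among 35 upstream sites. Arfgef1, an exchange factor for ARF GTPases, rose in intron 6 of 37 from 5.09% and 5.78% to 68.7% and 41.4% (log2 odds ratio 4.40 ± 0.53, adjusted p = 1.05e-11). Exoc5, of the exocyst, rose in intron 4 of 17 from 0.106% and 0.715% to 6.73% and 14.3% (adjusted p = 1.4e-10). Copb1, a subunit of the COPI coat, rose in intron 19 of 21 from 2.41% and 0% (0 of 214 reads, up to 1.40%) to 42.2% and 23.7% (adjusted p = 1.4e-06). These 3 vesicle genes kept their calls without each library.

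Mitochondrial proteins had calls in 5 of 41 genes (12.2%) and translation factors in 6 of 44 (13.6%), close to the 11.4% of all genes. Each of these lists had 2 rises and no fall among its upstream sites (of 6 and of 10). G3bp1, a stress granule protein, rose at its first site from 24.2% and 8.89% to 55.2% and 28.9% (adjusted p = 0.000427, with 0.0644 and 0.0947 without siCtrl replicates 1 and 2). Elavl1, the RNA-binding protein HuR, fell at its last site from 10.7% and 11.9% to 0.205% and 3.68% (adjusted p = 2.92e-05), kept without each library. Eif4ebp2, a repressor of cap-dependent translation, rose in intron 1 of 2 from 0% (0 of 104 reads, up to 2.88%) and 0.503% to 23.5% and 8.02% (adjusted p = 0.000969, and 0.275 without siCtrl replicate 1). Of the muscle lists, 2 of 7 tested myoblast markers and 1 of 8 tested myotube markers had a call, among them Ncam1 above and Ttn. Ttn, titin, rose in intron 41 of 346 from 4.76% and 1.29% to 19.5% and 14.4% (adjusted p = 0.0482), and was lost without each library (0.152 and 0.694 without siCtrl replicates 1 and 2, 0.0651 and 0.526 without siCdc73 replicates 1 and 2). No site of the 2 tested osteoblast markers was called, and no gene of the adipocyte, macrophage and endothelial lists could be tested.

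Of 14 genes that the study assayed by RT-qPCR, 6 had a called site. The study selected these genes, so that their count is no independent evidence of a direction. Its RT-qPCR figure includes negative control genes, and the study shows Dld as a control whose APA is unchanged. The 14 genes therefore mix controls with genes chosen for a change. Pcbp2, a poly(C)-binding protein, rose in intron 5 of 14 from 1.90% and 3.12% to 42.3% and 52.7% (log2 odds ratio 5.15 ± 0.47, adjusted p = 5.22e-19), kept without each library. Pdcd6ip, the ESCRT partner Alix, had 0 of 97 and 0 of 279 reads in intron 12 of 17 in siCtrl (up to 3.09% and 1.08%) and 18.8% and 11.1% after siCdc73 (adjusted p = 1e-05), likewise kept. In Pcbp2 the first and the last site of the 3'-most exon fell as well (adjusted p = 0.0426 and 0.0196), the first of these lost without each library (0.448 and 0.364 without siCtrl replicates 1 and 2, 0.217 and 0.231 without siCdc73 replicates 1 and 2) and the last without siCtrl replicate 2 (0.818) and siCdc73 replicate 2 (0.333). The Irs1 site with the larger change rose from 3.05% and 0.294% to 32.4% and 11.9% (adjusted p = 3.05e-09). It lies in the intron of Irs1, the insulin receptor substrate, after the whole coding sequence, and the last site of the gene held 23.7% and 87.2% in the siCtrl batches, so that the batches differed more than the groups. Myh9, a nonmuscle myosin, fell by 3.82 points at its 3' site, from 96.7% and 99.3% to 92.1% and 96.2% (adjusted p = 0.000648, with 0.213 without siCtrl replicate 2 and 0.269 without siCdc73 replicate 2). Col12a1 and Zfhx4 are described above. No site of Arsk, B3galtl, Cdh13, Ddx46, Dld, Gpc6, Tomm20 or Vim was called. The intronic site of Cdh13 had 14.8% and 8.56% in siCtrl and 27.8% and 23.7% after siCdc73 (adjusted p = 0.262).

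The depletion of Paf1, another subunit of the complex, was measured in the same 2 batches, and the siCdc73 libraries were set directly against the siPaf1 libraries for the named sites. Of all 19128 sites, 226 were higher and 161 lower after siCdc73 than after siPaf1 (1.18% and 0.842%), while 24 of the 92 named called sites, in 19 genes, differed between the depletions in this contrast. The named sites were picked by size in the same siCdc73 libraries, which bears on that count. The Fn1 site in intron 26 held 11.1% and 11.5% after siPaf1, less than the 36.8% and 28.3% after siCdc73 (log2 odds ratio 1.91, adjusted p = 0.00136), and 0.0372% in the lone siSki8 library. The Zfhx4 intronic site held 78.8% and 78.2% after siPaf1 (difference 3.07, adjusted p = 1.31e-06). For Ahnak the first site held 39.5% and 22.8% after siPaf1 (2.15, adjusted p = 0.00222). At the Lrp1 pair, the site in intron 13 held 56.7% and 32.5% after siPaf1 (3.50, adjusted p = 2.02e-08) and that in intron 34 held 18.2% and 40.2% (-4.04, adjusted p = 2.15e-09). Reep3 (55.4% and 34.9% after siPaf1), Nedd4 in intron 6 (17.2% and 20.9%), Fbxw7 (11% and 4.83%), Ptk2 (5.6% and 26.0%) and Exoc5 (0.354% and 2.60%) were likewise higher after siCdc73, with adjusted p of 0.000288, 0.00138, 0.000987, 0.000702 and 7.58e-06.

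Other large rises could not be told from those after siPaf1. The 2310035C23Rik site held 92.4% and 84.3% after siPaf1 (log2 odds ratio 0.02, adjusted p = 1), Zfp280c 71.4% and 81.8% (0.95, 0.707), Kdm3a 78.4% and 70.6% (-0.32, 0.918) and Lats2 87.7% and 76.2% (-0.04, 1). Col12a1 and Pcbp2 had higher values after siPaf1, at 89.1% and 84.4% and at 66.3% and 71.1%, but neither difference passed the test (adjusted p = 0.284 and 0.0830). A p that misses the threshold does not show that the depletions acted alike at these sites, and the standard error of the siCdc73 change against siCtrl there was between 0.47 and 1.02 on the log2 odds scale.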

How the data were processed

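3'READS and RNA-seq libraries of siRNA-treated C2C12 myoblasts were taken as count tables. Per the labels and the study's methods, the authors aligned with Bowtie2 (local mode, version not given in the sources used here) against the mm9 assembly, kept uniquely mapped reads with a MAPQ above 10 and, for 3'READS, at least 2 extra non-genomic Ts, and deposited counts of these PASS reads per pA site, typed by RefSeq gene models. The RNA-seq counts deposited by the authors cover the coding region of protein-coding genes. Their RPKM columns were not used, and 0 per-sample columns were left unmatched.

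From these counts, sites of at least 5% of the gene where the gene averaged 20 or more reads were tested for a change of the share with edgeR's quasi-likelihood test, as the reads at the site against those elsewhere in the gene, over all 7 libraries with the batch as a block, and Benjamini-Hochberg adjustment over all tested sites. A call needed an adjusted p under 0.05 and the same direction in both batches. In the fits without a siCtrl or siCdc73 library, where 1 batch lacked its pair, it needed the adjusted p alone. The block was used because the labels place same-numbered libraries in 1 batch, and the differences between batches correlated between conditions (r = 0.448, 0.466 and 0.406). Gene reads were tested with TMM scaling in the same design. Intervals are 95% Wilson intervals, and the limit for a share of 0 is 3 reads, both for counting error only. Positions came from GENCODE vM1 on NCBIM37, in which 7572 of 7639 genes were matched.

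Genes were named by rule: the 10 largest upstream rises and 4 falls, the 8 largest rises and 4 falls of first sites, the 4 largest rises of middle or last sites (1 site per gene, mean of at least 50 reads), then Fn1, Zfhx4, Ahnak, Cdc73, the RT-qPCR genes and up to 4 called genes per list by smallest adjusted p. The members and lists were chosen with earlier results of these data known. Alternatives were no block, only 4 libraries, DESeq2, Fisher's exact test, other limits on share and reads, other denominators and scalings, and leaving out each library. The scripts were tested on simulated data. R 4.3.3, edgeR 4.0.16, DESeq2 1.42.0, the R package data.table (version 1.17.8), Python 3.11.15, numpy 2.4.6, pandas 2.3.3, statsmodels 0.14.6 and matplotlib 3.10.9 were used. A few results that the naming rule selects are not reported here.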

Additional observations from a re-analysis of the deposited data

Results flagged for a closer look

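Reads at sites typed as upstream antisense, which no comparison of the report used, made up 0.2251% and 0.2046% of PASS reads in the siCdc73 libraries of batches 1 and 2, above the 0.1597% and 0.138% of the siCtrl libraries. The siPaf1 libraries held 0.1737% and 0.2032% in batches 1 and 2, and the lone siSki8 library 0.1409%. The paper reports a significant rise of upstream antisense transcripts when Cdc73 or Paf1 was depleted, and none for Ski8. These reads stand here because they are a signal outside the main measurement that exceeded the controls in both batches, and the difference was not tested here.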

How the results depend on the processing

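Counts of calls depended on the processing, and no named called site changed direction in the alternatives in which its log2 odds ratio was computed. These were all but Fisher's exact test, and held 76 of the 92 sites at a minimum of 10%, 86 with the share pooled over 7 libraries, 88 with the retained sites as denominator, 91 at a mean of 50 reads and 92 in the others. Counts are given as higher and lower. In the fit without the replicate block, 2 and 0 sites were called, 2 and 0 of them upstream, 0 and 0 first and 0 and 0 last, and 0 and 0 genes in 3'READS and in RNA-seq, where 1925 and 1377 genes had an unadjusted p under 0.05. DESeq2 called 448 and 394 sites, with 39 upstream falls, 109 rises of first sites and 19 and 163 last sites. Fisher's exact test within each batch, which compares libraries, called 1115 and 1133 sites, 436 and 111 first and 97 and 574 last. With no minimum share, 359 sites and 172 last sites fell. With a minimum of 10% of the gene, 239 upstream sites rose, and first sites gave 108 and 19 and last sites 21 and 151. Leaving out each library in turn gave 177 to 365 and 118 to 299 sites, 134 to 228 and 13 to 29 upstream, 23 to 83 and 8 to 21 first, and 7 to 19 and 38 to 110 last, with the lowest value of each without siCtrl replicate 2. In the same fits 614 to 943 and 764 to 1057 genes were called in 3'READS and 542 to 795 and 661 to 837 in RNA-seq. The cause of these shifts was not tested, beyond the smaller number of libraries. The site counts without a siCtrl or siCdc73 library rest on the adjusted p alone, a looser rule than that of the main counts. Of the 92 named called sites, 42 were called without each of the 4 libraries, 15 in 3 of these fits, 22 in 1 or 2 and 13 in none; DESeq2 kept 81 and the fit without the block 1. Of 38 named sites that were not called, 16 changed sign in at least 1 alternative and 2 passed the threshold in an alternative. Without siPaf1 replicate 2, an alternative chosen after seeing the data, 750 and 689 sites were called, 401 and 69 of them upstream, 214 and 43 first and 42 and 302 last. Depth limits the sites of genes with few reads, with intervals of up to 28.1 points to either side at the named first sites, for Hist1h2bk with 3 reads in siCdc73 batch 1.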
